A study of Homo sapiens with 4 samples.

Results

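The miR-29 family is a set of microRNAs, short RNAs that guide the silencing of messenger RNAs. It was followed here through its 3 mature names, hsa-miR-29a, hsa-miR-29b and hsa-miR-29c, which were taken from the deposited tables by exact name out of 1100 mature names. The 4 passenger (star) names of the family, which come from the other arm of the same hairpins, were kept apart and used as a second readout. The study held 4 small RNA libraries, 1 each from exosomes and cells of MDA-MB-231, a breast cancer line, and from exosomes and cells of MCF-10A, a non-transformed breast epithelial line. MDA-MB-231 was grown in DMEM containing 10% FBS. MCF-10A was grown in DMEM/F12 containing 5% horse serum together with insulin, EGF, cholera toxin and hydrocortisone. The labels name no altered gene and no tested compound for any of the 4 libraries. With 1 library per group, no difference was tested against replicates, no p-value was computed, and every interval given covers counting error only.

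miR-29 microRNAs are known to repress extracellular matrix genes such as collagens, the de novo DNA methyltransferases and the survival factor MCL1. Members share a seed, the stretch near the 5′ end that pairs with target messages, and are expected to share most targets. Exosomes are small vesicles that cells release with RNA inside. miR-29b has been reported to be imported into the nucleus through a short motif at its 3′ end, and uracils just past the seed have been reported to speed the turnover of miR-29b relative to miR-29a. These reports made the exosome to cell ratio of miR-29b, set against those of miR-29a and miR-29c, the question of interest.

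The mature sequences are shown because the members differ at few bases and because both reported features can be read from them (RefSeq, GRCh38.p14; all 3 names matched; written 5′ to 3′, with the seed, bases 2 to 8, in capitals).
hsa-miR-29b: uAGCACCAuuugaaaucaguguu
hsa-miR-29a: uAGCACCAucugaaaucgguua
hsa-miR-29c: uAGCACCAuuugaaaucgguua
The seed AGCACCA was the same in the 3 members, and no other of the 2351 distinct human mature sequences held it at bases 2 to 8. Counted from 1 at the 5′ end and with the miR-29a base first, miR-29c differed from miR-29a by C10U alone. miR-29b differed from miR-29a by C10U, G18A, U21G and A22U and carried 1 extra base. The motif AGUGUU was found at bases 18 to 23, the 3′ end, of miR-29b and was absent from miR-29a and miR-29c. It lay at the 3′ end of 2 of the 2351 mature sequences, 0.0851%, and anywhere in 13, 0.553%. Bases 9 to 11 read UUU in miR-29b and miR-29c, as in 39 of the 2351 mature sequences (1.66%), and UCU in miR-29a. The number of mismatches the authors allowed when assigning reads is not given in the sources used here, and whether some miR-29a reads were counted as miR-29c across their 1-base difference was not tested.

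The members come from 2 loci, each holding a pair of hairpins. In GRCh38, MIR29A (chr7:130876747-130876810) and MIR29B1 (chr7:130877459-130877539) lay on the minus strand of chromosome 7 with 648 bases between them. MIR29C (chr1:207801852-207801939) and MIR29B2 (chr1:207802443-207802523) lay on the minus strand of chromosome 1 with 503 bases between them. In the GENCODE 29 annotation MIR29B1 was inside an exon of the long noncoding RNA LINC-PINT, MIR29A only partly overlapped an exon of it, and the chromosome 1 pair was inside an exon of MIR29B2CHG. The 2 hairpins that make miR-29b are shown, with the mature miRNA in capitals, because their mature product is identical and its reads cannot be assigned to a locus.
MIR29B1: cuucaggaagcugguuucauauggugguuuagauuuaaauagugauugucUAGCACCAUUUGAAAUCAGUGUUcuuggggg
MIR29B2: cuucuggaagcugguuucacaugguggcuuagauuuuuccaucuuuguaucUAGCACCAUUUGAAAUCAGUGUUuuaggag
The passenger arms do differ between the loci, and they are shown with their bases 2 to 8 in capitals.
hsa-miR-29b-1*: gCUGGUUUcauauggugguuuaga
hsa-miR-29b-2*: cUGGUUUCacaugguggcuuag

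1 of the 4 libraries stood apart from the rest. Recovered depth was 1532909 reads for MDA-MB-231 exosomes and 7346080 for MDA-MB-231 cells, while MCF-10A exosomes had 1254641 and the library labelled MCF-10A cell had 10937870. miR-21 led 3 libraries, whereas miR-143, a smooth muscle and stromal miRNA, made up 27.1% of the library labelled MCF-10A cell. Markers of other tissues (8 lists, 34 names: muscle, mesenchymal, endothelial, liver, neural, placental, erythroid and leukocyte) held 49.2% of that library, and all 34 had at least 10 reads there. The same 34 names together took 2.37% of reads from MDA-MB-231 exosomes, against 0.0688% from MDA-MB-231 cells, and 0.0814% from MCF-10A exosomes. As log2 of 1 plus reads per 10000000, the liver marker miR-122 stood at 14.79 for MDA-MB-231 exosomes and 4.42 for MDA-MB-231 cells, while MCF-10A exosomes had 6.33 and the library labelled MCF-10A cell had 14.26. The breast epithelial list of 4 names took 0.0117% of reads from MDA-MB-231 exosomes and 0.00856% from MDA-MB-231 cells, while MCF-10A exosomes had 4.32% and the library labelled MCF-10A cell had 0.773%. The part of these differences in any miR-29 value was not tested. Every MCF-10A exosome over cell value and every contrast between cell libraries uses the library labelled MCF-10A cell, also where it is not named.

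A level is the deposited value, log2 of 1 plus the reads per 10000000 of all miRNA reads, and the recovered reads stand beside it. For miR-29a, the most abundant member in every library, MDA-MB-231 exosomes had 15.32 (6270 reads) and MDA-MB-231 cells 15.89 (44608 reads), while MCF-10A exosomes had 14.49 (2887 reads) and the library labelled MCF-10A cell had 17.27 (172869 reads). The 4 values of miR-29a lay within a range of 2.78, and each neighbour in their order differed beyond counting error. For miR-29b, MDA-MB-231 exosomes had 11.09 (334 reads) and MDA-MB-231 cells 14.12 (13079 reads), while MCF-10A exosomes had 11.10 (275 reads) and the library labelled MCF-10A cell had 14.59 (26974 reads). Both exosome libraries were thus low and both cell libraries high for miR-29b, and the 2 exosome values could not be told apart at this depth (fold 0.994, 95% interval 0.845 to 1.17, MDA-MB-231 over MCF-10A). For miR-29c, MDA-MB-231 exosomes had 9.92 (148 reads) and MDA-MB-231 cells 9.0 (375 reads), while MCF-10A exosomes had 8.43 (43 reads) and the library labelled MCF-10A cell had 14.74 (29929 reads). miR-29c was therefore low in 3 libraries, and its one high value came from the library that holds the markers of other tissues. Among names above 0, the rank of miR-29b was 106 of 508 for MDA-MB-231 exosomes and 46 of 566 for MDA-MB-231 cells, while miR-29a ranked 28 in exosomes and 18 in cells of that line.

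**Figure D1:**
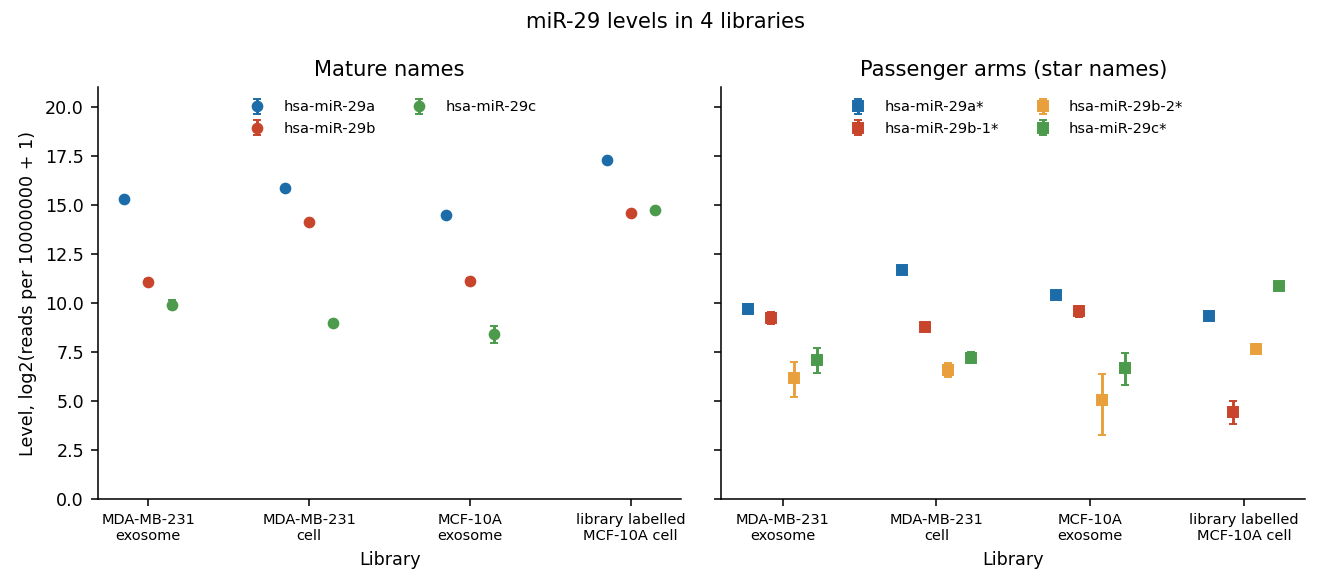
Level of each miR-29 name (y axis, log2 of reads per 10000000 plus 1) in the 4 libraries (x axis), mature names on the left and passenger arms on the right; points are single libraries and bars are 95% Poisson intervals. miR-29b sits at 11.09 and 11.10 in the exosome libraries and at 14.12 and 14.59 in the cell libraries.

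The make-up of the family was compared first, since shares of the family within a library do not depend on how libraries are scaled. Family reads numbered 6752 for MDA-MB-231 exosomes (0.440% of all miRNA reads) and 58062 for MDA-MB-231 cells (0.790%). MCF-10A exosomes had 3205 (0.255%), against 229772 (2.10%) for the library labelled MCF-10A cell. Of these family reads, miR-29b made up 4.95% (Wilson 95% interval 4.45 to 5.49) in MDA-MB-231 exosomes against 22.5% (22.2 to 22.9) in MDA-MB-231 cells. The share of miR-29b in MCF-10A exosomes was 8.58% (7.66 to 9.60), against 11.7% (11.6 to 11.9) in the library labelled MCF-10A cell. In both lines the share of miR-29b was lower in exosomes by more than counting error. Both exosome shares were also below the share in MDA-MB-231 cells, a comparison that leaves out the library that stands apart. For MCF-10A exosomes that comparison crosses lines, so fraction, line and medium differ together. miR-29a filled most of the rest, with 92.9% for MDA-MB-231 exosomes against 76.8% for MDA-MB-231 cells, and 90.1% for MCF-10A exosomes against 75.2% for the library labelled MCF-10A cell. miR-29c had 2.19% (1.87 to 2.57) of family reads from MDA-MB-231 exosomes, against 0.646% (0.584 to 0.714) from MDA-MB-231 cells. Its share was 1.34% (0.998 to 1.80) in MCF-10A exosomes against 13.0% (12.9 to 13.2) for the library labelled MCF-10A cell.

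**Figure D2:**
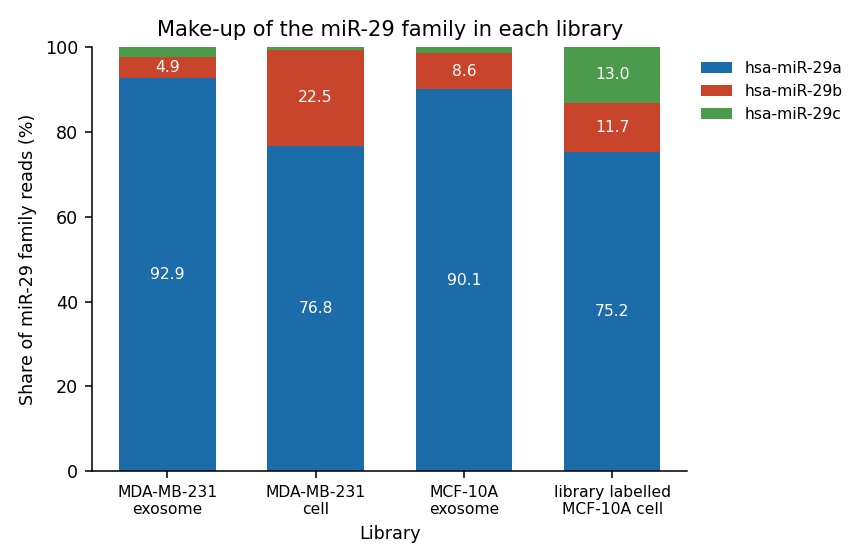
Share of each member (y axis, percent of mature miR-29 reads) in the 4 libraries (x axis); each stacked bar is 1 library. The miR-29b part is 4.95% and 8.58% in the exosome libraries, and the cell bars show 22.5% (MDA-MB-231) and 11.7% (library labelled MCF-10A cell).

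The 3 members had different exosome to cell ratios in MDA-MB-231 although they share a seed. The log2 level of miR-29b in exosomes minus that in cells was −3.03, which is 8.17-fold lower in exosomes (95% interval 7.33 to 9.14). For miR-29a the same difference was −0.57, or 1.48-fold lower in exosomes (1.45 to 1.52). For miR-29c it was 0.92, or 1.89-fold higher in exosomes (1.55 to 2.29). The order of exosome over cell in MDA-MB-231 was thus miR-29c above miR-29a above miR-29b, and no 2 of the 3 intervals overlapped. In bulk RNA, fewer vesicles or cells that hold a miRNA and less of it in each cannot be told apart. At a 4-fold size, 1 of the 3 members (miR-29b) was lower in MDA-MB-231 exosomes and 0 were higher, where 13.4% of the 499 names compared were at least 4-fold lower and 22.2% at least 4-fold higher. Of the 499 names, 422 had reads in both libraries, and a name without reads in 1 library passed this size by its absence alone. With 10 added to the reads per 10000000 in place of 1, 38 of the 499 names were lower by that size and 81 higher. The median difference was −0.57 over the members and −0.09 over all 499 names. Names of the other-tissue lists held 2.37% of exosome and 0.0688% of cell reads in this line, and on a total without them the difference was −3.00 for miR-29b, −0.54 for miR-29a and 0.95 for miR-29c. That step changes only the totals and shifts all 3 members alike. It cannot show whether miR-29 reads had the same origin as those names, which was not tested.

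Set against the other members, the exosome over cell ratio of miR-29b in MDA-MB-231 was 5.50-fold lower than that of miR-29a (exact conditional 95% interval 4.92 to 6.17) and 15.4-fold lower than that of miR-29c (12.3 to 19.3). The ratio of miR-29c was 2.81-fold higher than that of miR-29a (2.30 to 3.41). In plain reads, there were 18.8 miR-29a reads for each miR-29b read in MDA-MB-231 exosomes, against 3.41 in MDA-MB-231 cells. In MDA-MB-231, miR-29b, the member with the 3′ motif, thus had the lowest exosome ratio of the 3. miR-29c, which has UUU at bases 9 to 11 as miR-29b does, had the highest in that line. The order differed in MCF-10A, against the library labelled MCF-10A cell, with miR-29c lowest (−6.31), then miR-29b (−3.49) and miR-29a (−2.78). Neither the motif nor the UUU was tied to a ratio by any measurement here, and 3 sequences allow no test of either.

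Among the 254 names with at least 50 reads per 10000000 in both MDA-MB-231 libraries, the median difference was −0.24, with quartiles at −0.99 and 0.54. Only miR-100* (−3.30, 18 reads in exosomes and 857 in cells) and miR-455-3p (−3.21, 9 reads in exosomes and 405 in cells) lay below miR-29b, and both were picked after their values were seen. miR-29a was in the middle of these names, with 95 of them lower, and miR-29c in the upper part, with 205 lower. That minimum leaves out names that are scarce in exosomes. Over all 499 names, 35 had a lower difference than miR-29b. That count includes any name with 0 exosome reads, although 0 reads there allow up to 19.6 per 10000000.

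**Figure D3:**
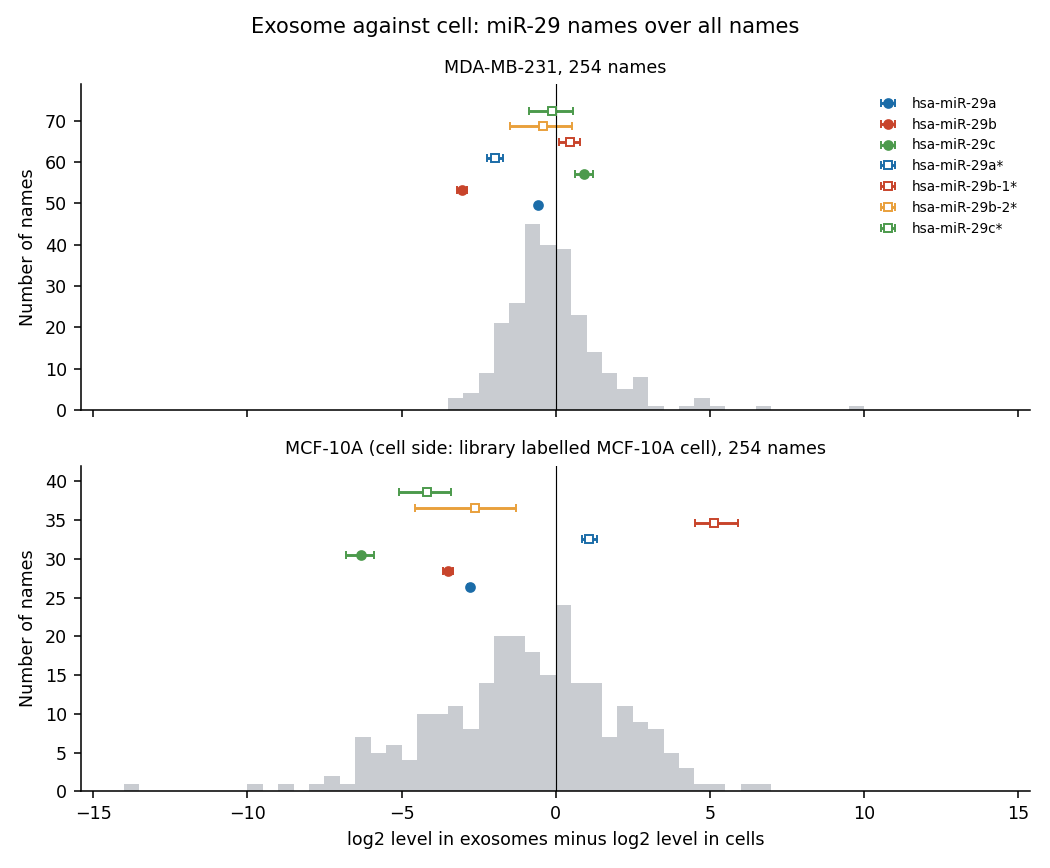
Histogram of the log2 level in exosomes minus that in cells (x axis) over the 254 names with at least 50 reads per 10000000 in both libraries of a line (y axis, number of names), with the miR-29 names marked above at heights that carry no value; bars are 95% intervals. In MDA-MB-231 miR-29b lies at −3.03 near the low end, and in MCF-10A, where the cell side is the library labelled MCF-10A cell, the 3 mature names lie between −6.31 and −2.78.

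In MCF-10A every member was lower in exosomes than in the library labelled MCF-10A cell, and miR-29c by the most. The log2 level in exosomes minus that in the cell library was −3.49 for miR-29b, or 11.3-fold lower (9.99 to 12.7). It was −2.78 for miR-29a, or 6.87-fold lower (6.62 to 7.13), and −6.31 for miR-29c, or 79.8-fold lower (59.3 to 110). The cell side of these differences is the library in which 49.2% of reads carry names of other tissues, and no other MCF-10A cell library was analysed, so the result cannot be given without it. All 3 members were at least 4-fold lower and 0 were higher, in a comparison where 57.2% of 661 names were at least 4-fold lower and 15.4% at least 4-fold higher. Under upper-quartile scaling 1 member (miR-29c, −4.63) kept that size, with miR-29b at −1.81 and miR-29a at −1.10. On that scaling 289 of 648 names were at least 4-fold lower. As deposited, the median over the members was −3.49 and that over all 661 names −3.27, of which 410 had reads in both libraries. Over the 254 names that reached 50 reads per 10000000 in both libraries the median was −0.86, and all 3 members lay below it, with 49 names lower than miR-29b, 65 lower than miR-29a and 8 lower than miR-29c. The ratio of miR-29b was 1.64-fold lower than that of miR-29a (1.45 to 1.86), the same direction as in MDA-MB-231. Against miR-29c it was 7.10-fold higher (5.13 to 10.0), opposite to MDA-MB-231.

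The MDA-MB-231 and MCF-10A exosome libraries could be compared without the library that stands apart. Other-tissue names held 2.37% of reads in MDA-MB-231 exosomes against 0.0814% in MCF-10A exosomes, and medium and serum also differed between the lines. The part of either in the differences below was not tested. miR-29a was 0.83 higher on the log2 scale in MDA-MB-231 exosomes, or 1.78-fold (1.70 to 1.86). miR-29c was 1.49 higher, or 2.82-fold (1.99 to 4.05), on 148 reads in MDA-MB-231 exosomes against 43 in MCF-10A exosomes. For miR-29b the difference was −0.01, with the fold of 0.994 given above. None of the 3 members reached a 4-fold size in either direction, where in MDA-MB-231 exosomes 29.3% of 505 names were at least 4-fold higher and 19.0% at least 4-fold lower. Of the 505 names, 374 had reads in both libraries. All 505 names had a median of 0.59, and the 242 names at 50 reads per 10000000 in both libraries one of 0.32, so miR-29a and miR-29c were above both medians and miR-29b below both. Under the other scalings that median was 0.03 (upper quartile) and 0.20 (median of ratios), and the 3 members moved with it.

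Between the cell libraries, MDA-MB-231 was set against the library labelled MCF-10A cell, which has 49.2% of its reads in other-tissue names. The log2 difference was −5.74 for miR-29c, or 53.6-fold lower in MDA-MB-231 cells (48.4 to 59.5). For miR-29a it was −1.38, or 2.60-fold lower (2.58 to 2.63), with −0.17 under upper-quartile scaling and −2.36 on a total without other-tissue names. For miR-29b it was −0.47, or 1.39-fold lower (1.36 to 1.41), and this direction turned to 0.74 under upper-quartile scaling. At a 4-fold size 1 member (miR-29c) was lower and 0 were higher, where 54.3% of 665 names were at least 4-fold lower and 17.3% at least 4-fold higher. On the total without other-tissue names 2 members (miR-29a and miR-29c) were lower by that size, as were 423 of 686 names. Of the 665 names, 467 had reads in both libraries. The median over all 665 names was −2.83, with miR-29c below it and the other 2 members above it. Over the 249 names that reached 50 reads per 10000000 in both libraries the median was −0.40, and all 3 members lay below it, with 119 names lower than miR-29b, 85 lower than miR-29a and 8 lower than miR-29c. This contrast shares a library with each exosome to cell contrast, so its values are no separate evidence for them.

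The passenger arms can be assigned to a locus, which the shared mature sequence of miR-29b cannot. Their reads do not measure how much mature miR-29b each locus made. miR-29b-1*, from the chromosome 7 locus, had 93 reads from MDA-MB-231 exosomes and 324 from MDA-MB-231 cells, with 96 from MCF-10A exosomes against 23 from the library labelled MCF-10A cell. miR-29b-2*, from the chromosome 1 locus, had 11 reads from MDA-MB-231 exosomes and 70 from MDA-MB-231 cells, with 4 from MCF-10A exosomes against 222 from the library labelled MCF-10A cell. Of the passenger reads of miR-29b, the chromosome 7 arm made up 89.4% (82.0 to 94.0) for MDA-MB-231 exosomes, 82.2% (78.2 to 85.7) for the MDA-MB-231 cells and 96.0% (90.2 to 98.4) for MCF-10A exosomes. The same share was 9.39% (6.34 to 13.7) for the library labelled MCF-10A cell, so the locus that led was chromosome 7 in 3 libraries and chromosome 1 in that one. The other chromosome 1 names were also at their highest there: miR-29c* had 21 reads from MDA-MB-231 exosomes and 109 from MDA-MB-231 cells, with 13 from MCF-10A exosomes against 2046 from the library labelled MCF-10A cell. A highest level in that library was not particular to chromosome 1, since miR-29a of chromosome 7 had it too (17.27). The chromosome 7 passenger arms were at their lowest levels there, with 9.32 for miR-29a* and 4.46 for miR-29b-1*.

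miR-29b and its passenger arms did not have the same exosome to cell ratio. There were 3.21 miR-29b reads (2.57 to 4.04) for each read of its 2 passenger arms in MDA-MB-231 exosomes, against 33.2 (30.0 to 36.8) in MDA-MB-231 cells. The number was 2.75 (2.18 to 3.49) in MCF-10A exosomes, against 110 (97.1 to 125) in the library labelled MCF-10A cell. The exosome libraries of both lines thus held few mature miR-29b reads per passenger read, and this includes the MDA-MB-231 pair, which does not use the library that stands apart. miR-29b-1* itself was 0.46 higher on the log2 scale in MDA-MB-231 exosomes than in cells, or 1.38-fold (1.08 to 1.74), and the ratio of miR-29b was 11.2-fold lower than that of miR-29b-1* (8.61 to 14.6). For miR-29a the pattern ran the other way in MDA-MB-231, with 48.6 reads (40.8 to 58.3) per miR-29a* read in exosomes against 18.4 (17.7 to 19.2) in cells. In MCF-10A the ratio of miR-29a to miR-29a* was 16.9 (14.5 to 19.8) in exosomes against 248 (230 to 267) in the library labelled MCF-10A cell. At a 4-fold size 0 of the 4 passenger arms differed between MDA-MB-231 exosomes and cells, while in MCF-10A 1 was higher (miR-29b-1*) and 2 were lower (miR-29b-2* and miR-29c*) in exosomes, against the same shares of all names as above.

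The spread of ratios within the miR-29 family was set beside that of other seed families, each with at least 2 members at 50 reads per 10000000 in both libraries. In MDA-MB-231 the highest exosome minus cell difference of miR-29 (miR-29c) and the lowest (miR-29b) were 3.95 apart, the widest of 22 families. The let-7 family, with 9 members, followed at 3.72, from let-7g at −1.06 to let-7b at 2.66. The median spread of the other 21 families was 1.17, and the narrowest was miR-19, whose 2 members both stood at −1.72. With a minimum of 10 reads per 10000000, miR-29 ranked 2 of 24. In MCF-10A, with the library labelled MCF-10A cell, the spread of miR-29 was 3.53 and ranked 13 of 24, near the median of 3.64 over the other 23 families. The 11 other families with at least 3 members had a median of 4.66 there, and 9 of them were wider than miR-29. There the widest was miR-99/100 at 10.31 and the narrowest miR-196 at 0.21. The members' ratios were known when the family was chosen, so these ranks describe the libraries and test nothing.

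**Figure D4:**
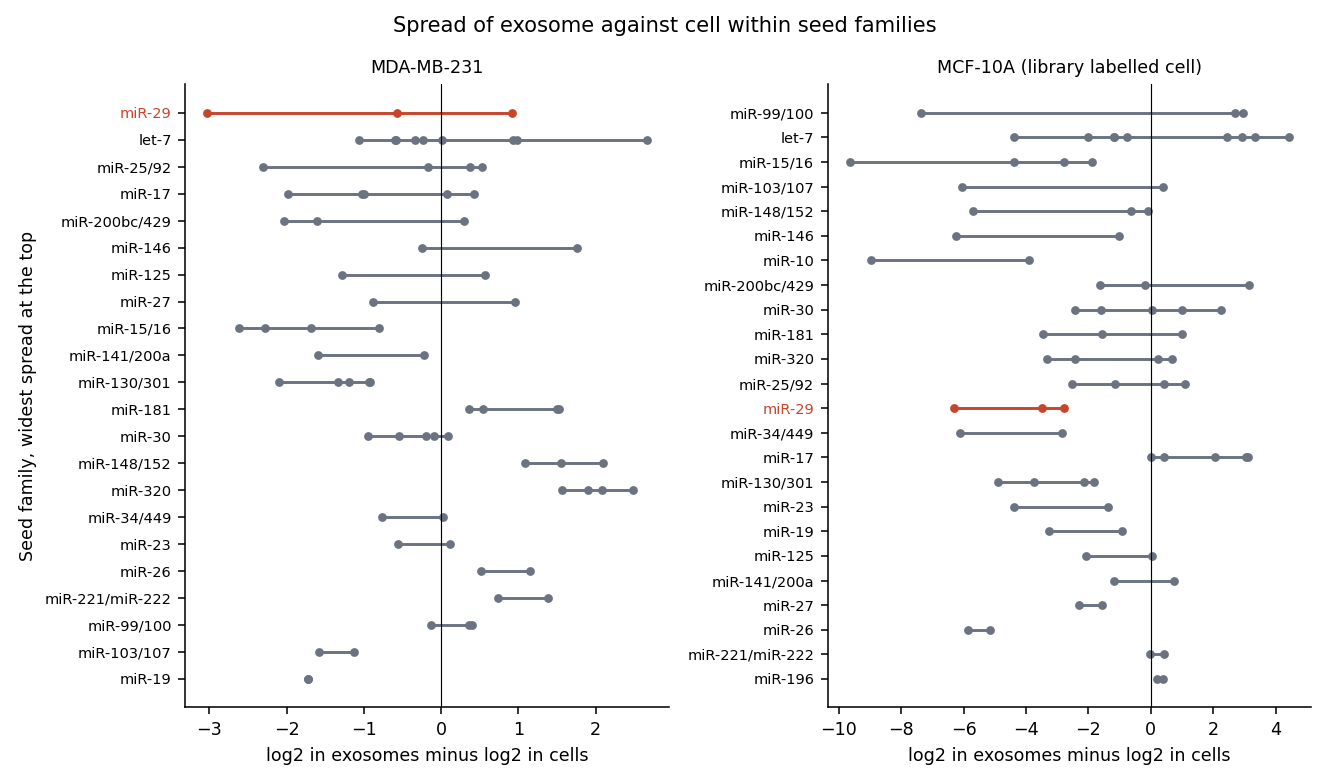
Log2 level in exosomes minus that in cells (x axis) for members of each seed family (rows, widest spread at the top) in MDA-MB-231 and MCF-10A; points are members and lines join the lowest and highest. miR-29 has the widest spread, 3.95, in MDA-MB-231 and ranks 13 of 24 in MCF-10A, where the cell side is the library labelled MCF-10A cell.

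For each member, the names with the most similar pattern were sought among the 206 names that reached 50 reads per 10000000 in every library, by the root mean square difference of log2 levels centred on each name's own mean. Over the 4 libraries, miR-345 was closest to miR-29a, at a difference of 0.217. For miR-29b the closest was miR-15b, at 0.384, with levels of 9.28 for MDA-MB-231 exosomes and 11.56 for MDA-MB-231 cells, and of 9.52 for MCF-10A exosomes against 12.31 for the library labelled MCF-10A cell. Closest to miR-29c was miR-26a, at 0.176, which had 13.80 in exosomes and 12.65 in cells of MDA-MB-231, with 12.43 for MCF-10A exosomes against 18.30 for the library labelled MCF-10A cell. Next in order came miR-125b, miR-450a, miR-340 and miR-30c for miR-29a, at up to 0.439, and miR-32, miR-454, miR-218 and miR-19b for miR-29b, at up to 0.730. For miR-29c they were miR-34c-5p, miR-26b, miR-95 and miR-99a, at up to 0.591. Between members the difference was 0.905 for miR-29b and miR-29a, 1.96 for miR-29b and miR-29c, and 1.64 for miR-29c and miR-29a. These values were larger, but the names above were picked as the closest of 206, which largely fixed that contrast in advance.

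Without the library labelled MCF-10A cell, miR-345 remained closest to miR-29a (0.0712), followed by miR-324-3p, miR-331-5p, miR-23a and miR-450a, at up to 0.110. For miR-29b the closest was then miR-15b* (0.189), the passenger arm of miR-15b, with levels of 7.41 for MDA-MB-231 exosomes, against 10.06 for MDA-MB-231 cells, and 7.46 for MCF-10A exosomes. It was followed by miR-374a*, miR-32, miR-15b and miR-331-3p, at up to 0.448. For miR-29c the closest were miR-128 (0.0694), miR-148b, miR-125b-1*, miR-33b and miR-26a, at up to 0.145. Over these 3 libraries the difference was 1.02 between miR-29b and miR-29a, 1.63 between miR-29b and miR-29c, and 0.610 between miR-29c and miR-29a. Similarity over 3 or 4 libraries of unlike depth on the same scaling is a description only.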

How the data were processed

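The authors deposited, for each of the 4 libraries, log2 values with 2 decimals for 1100 mature miRNA names. Per the labels' protocols, TRIZOL (cells) or TRIZOL LS (exosomes) was used for extraction, a size range of 17 to 52 nt was cut out, adapters were joined to 5′ monophosphates, and sequencing used a Genome Analyzer IIx. The submitters' processing notes name Novoalign, edgeR and hg18, without version or role. The purification of exosomes, the mismatches allowed and the miRBase release are not given in the sources used here. Ligation that needs a 5′ monophosphate and the size selection limit which RNAs could be read.

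Per library, 2 to the power of the deposited log2 value minus 1 summed to 9992361 to 10004141, so values were read as log2 of reads per 10000000 plus 1. The worth of 1 read, found from the spacing of low values, was 6.52 (MDA-MB-231 exosomes), 1.36 (MDA-MB-231 cells), 7.97 (MCF-10A exosomes) and 0.914 (library labelled MCF-10A cell) per 10000000. Single reads were resolved (rounding interval under 0.5 reads) for 40.1% to 65.7% of names above 0, and all of those gave whole reads. Larger counts are known to 0.347%. A count of 0 allows up to 3 reads, or 2.74 to 23.9 per 10000000.

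Log2 differences were taken between deposited values (pseudocount 1 per 10000000), over names that reached 10 reads per 10000000 in 1 library of the comparison. Folds, shares and ratios came from recovered reads, with exact conditional, Wilson or Poisson 95% intervals. Reads without molecular identifiers are not independent molecules, so intervals cover counting error only. Each group being a single library, there was no test, no paired analysis and no replicate to leave out. Alternatives were 3 other scalings, a larger or no pseudocount, other minimums, a 2-fold size and adding passenger arms.

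Named were all members and passenger arms, the 5 most similar names per member, the widest and narrowest family per line, miR-21 and leading markers. The members, the family lists and the marker lists were chosen with earlier results of these data known. Loci were read from GENCODE 29 and sequences from RefSeq (GRCh38.p14); no coordinate came from the deposited files. Python 3.11.15 with numpy 2.4.6, scipy 1.17.1, pandas 2.3.3 and matplotlib 3.10.9 was used, and the steps were tested on simulated data.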

Additional observations from a re-analysis of the deposited data

Results flagged for a closer look

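The exosome minus cell difference of miR-29c had opposite signs in the lines. It was 0.92 in MDA-MB-231 and −6.31 in MCF-10A, which is 7.23 apart on the log2 scale. The exosome over cell ratio of miR-29b over that of miR-29c likewise lay on opposite sides (log2 −3.95 in MDA-MB-231 and 2.83 in MCF-10A, a difference of −6.78). So did that of miR-29c over miR-29a (log2 1.49 in MDA-MB-231 and −3.54 in MCF-10A, a difference of 5.03). With 1 library per group these differences were not tested, and the MCF-10A side of each uses the library labelled MCF-10A cell, where names of other tissues held 49.2% of reads.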

How the results depend on the processing

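Of 178 recomputed values, 136 stayed within the counting interval of the reported value (for counts, within 1.5 times) and on its side of 0. The other 42 left that interval or changed sign. Some of the 178 could hardly move, since scaling leaves the spread within a family nearly unchanged and recovered reads restate the deposited values. The tally is thus no measure of robustness. Ratios between members within a line do not depend on scaling. With deposited values, a larger pseudocount or passenger arms, the 3 ratios kept their direction in both lines. Those alternatives were chosen after seeing the data for miR-29c over miR-29a (1.36 to 1.49 in MDA-MB-231, −3.53 to −3.33 in MCF-10A). At least 1 scaling shifted the median of all names by over 0.1 in each comparison. That median was −3.27 in MCF-10A exosomes over the cell library as deposited, −1.62 under upper-quartile scaling, −2.53 under median of ratios and −4.18 on a total without other-tissue names. Between cell libraries the same 4 medians were −2.83, −1.65, −2.62 and −3.72. With a pseudocount of 10 these medians were −1.83 and −1.66. With none, over the 410 and 467 names with reads in both libraries, they were −0.65 and −0.80, while no member's difference left its interval. In MDA-MB-231 exosomes over cells it was −0.09 as deposited and 0.07 under median of ratios.

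Under upper-quartile scaling the log2 difference of miR-29a in MDA-MB-231 exosomes over cells was −0.65. In MCF-10A exosomes over the cell library it was −1.81 for miR-29b, −1.10 for miR-29a and −4.63 for miR-29c. There 1 member was at least 4-fold lower in place of 3, as were 289 of 648 names in place of 378 of 661. In MDA-MB-231 over MCF-10A exosomes the difference was −0.57 for miR-29b, 0.27 for miR-29a and 0.93 for miR-29c. Between cell libraries it was 0.74, −0.17 and −4.54 in that order. Under median of ratios, miR-29b and miR-29a were at −2.87 and −0.41 in MDA-MB-231 exosomes over cells. miR-29b, miR-29a and miR-29c were at −2.72, −2.01 and −5.54 in MCF-10A exosomes over the cell library and at −0.26, −1.17 and −5.53 between cell libraries. Between exosome libraries miR-29b was at −0.40 and miR-29a at 0.43. On a total without other-tissue names the 3 members in the same order were at −4.47, −3.76 and −7.29 in MCF-10A exosomes over the cell library. Between cell libraries they were at −1.45, −2.36 and −6.72, and 2 were at least 4-fold lower, as were 423 of 686 names. Between exosome libraries miR-29b was then at 0.022, a change of sign inside its counting interval. At a 2-fold size, 1 member was higher between exosome libraries, as were 218 of 505 names. Between cell libraries 2 members were lower by that size, as were 404 of 665 names.

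With passenger arms added, the log2 ratio of ratios was −2.07 (miR-29b over miR-29a) and −3.42 (miR-29b over miR-29c) in MDA-MB-231, and −0.35 (miR-29b over miR-29a) in MCF-10A. Shares of miR-29a then became 91.3% for MDA-MB-231 exosomes, 87.7% for MCF-10A exosomes but 74.6% in the library labelled MCF-10A cell. Shares of miR-29b became 6.25% for MDA-MB-231 exosomes, against 22.1% for MDA-MB-231 cells, and 10.8% for MCF-10A exosomes. The share of miR-29c was 0.794% for MDA-MB-231 cells, against 13.7% in the library labelled MCF-10A cell. Causes of these shifts were not tested. Depth limits miR-29c in MCF-10A exosomes (43 reads) and the passenger arms with few reads, such as miR-29b-2* there (4 reads).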
